A study of Mus musculus with 10 samples.

Results

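The TRAF adaptors, the inhibitor of apoptosis proteins (IAPs) and c-FLIP were followed in CD4+ splenocytes of mice with abdominal sepsis. The 10 genes were Traf1, Traf2, Traf3, Traf4, Traf5, Traf6, Birc2, Birc3, Xiap and Cflar. They were read at every probe set that the platform annotation gives to exactly 1 of these symbols, which found 27 of the 34945 probe sets with a single symbol and covered 9 of the 10 genes, out of 18193 genes named in that way. No probe set carried Traf3 as its only symbol, and Traf3 was not analysed here. The first group was 5 C57Bl/6 mice whose cecum was ligated and punctured under halothane (CLP), which spills gut bacteria into the abdomen, and the second was 5 C57Bl/6 mice after sham laparotomy. All were 8 to 12 weeks old and had surgery 6 h before the spleen was taken. CD4+ cells were enriched by magnetic removal of other cells, to about 91% according to the series' design text, and each mouse gave 1 Affymetrix array. These are mixed cell extracts, so fewer cells of a type and less RNA per cell cannot be told apart.

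TRAF proteins bind the tails of TNF receptor family members, such as the costimulatory receptors of T cells, and of the interleukin-1 and Toll-like receptors. They gather the ubiquitin ligases and kinases that switch on NF-kB and the stress kinases. The cellular IAPs, encoded by Birc2 and Birc3, are ubiquitin ligases carried into these complexes by TRAF2. They mark RIPK1 for survival signalling, and together with TRAF2 and TRAF3 they keep the kinase NIK degraded and the alternative NF-kB pathway off. XIAP binds and blocks caspases directly, and c-FLIP, a caspase-8 relative without protease activity, controls whether a death receptor triggers caspase-8. Traf1, Birc3 and Cflar are known targets of NF-kB.

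The values are log2 signals, that is log2 of the deposited intensity once the arrays had been brought to one median and values under 70.4 raised to that floor (6.14 on the log2 scale). Of the 27 probe sets, 21 were bright enough to be tested, and the 6 others, 1 of Traf5, 3 of Xiap and 2 of Cflar, were below the filter on dim probe sets. Fold changes are log2 differences, CLP minus sham, with limma's standard error (SE), and every adjusted p is limma's after Benjamini-Hochberg adjustment over the 27022 probe sets tested. With 5 arrays in each group, that number limits the precision of every value.

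The arrays fell into 2 classes by the signal of a control probe set for 18S ribosomal RNA. In the high class, replicates 1, 3 and 5 of both groups, it ran from 3134 to 4436 in CLP arrays and from 3223 to 5178 in sham arrays. In the low class, replicates 2 and 4 of both groups, it ran from 228 to 268 in CLP arrays and from 194 to 234 in sham arrays. The ratio of the 3 prime to the 5 prime Gapdh control moved with it, at 20.7 to 29.5 in the high class and 9.45 to 13.4 in the low class over both groups. The same ratio of the actin control did not separate the classes. It ran from 6.25 to 11.7 in high class sham arrays, and all low class arrays of both groups lay within that range. The labels name no batch. The class is balanced between the groups, and values with it as a block are given beside results whose call it changes and beside some others.

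No member probe set passed the threshold of 0.05 on the adjusted p, in a table where 0.703% of probe sets did (45 higher and 145 lower in CLP). At an unadjusted p under 0.05 there were 8 member probe sets, 6 higher and 2 lower, or 38.1% of the 21, against 10.9% of all probe sets tested. They include both Birc3 probe sets, and Xiap 1437533_at lower beside Xiap 1453385_at higher. The members were chosen with earlier results of these data known, so these shares are a description only. Every CLP array lay above every sham array at 2 member probe sets, 1 of Birc3 and 1 of Traf6, and below every sham array at 2, 1 of Traf1 and 1 of Xiap; of all probe sets 2.97% were separated in this way, 0.862% with CLP higher and 2.11% with CLP lower. The median log2 fold change of the 21 was 0.085, against 0.0049 over all probe sets tested. With the 18S class as a block 3 members passed, Birc3 and Traf6 higher and Cflar lower, in a fit that called 2.66% of all probe sets.

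**Figure D1:**
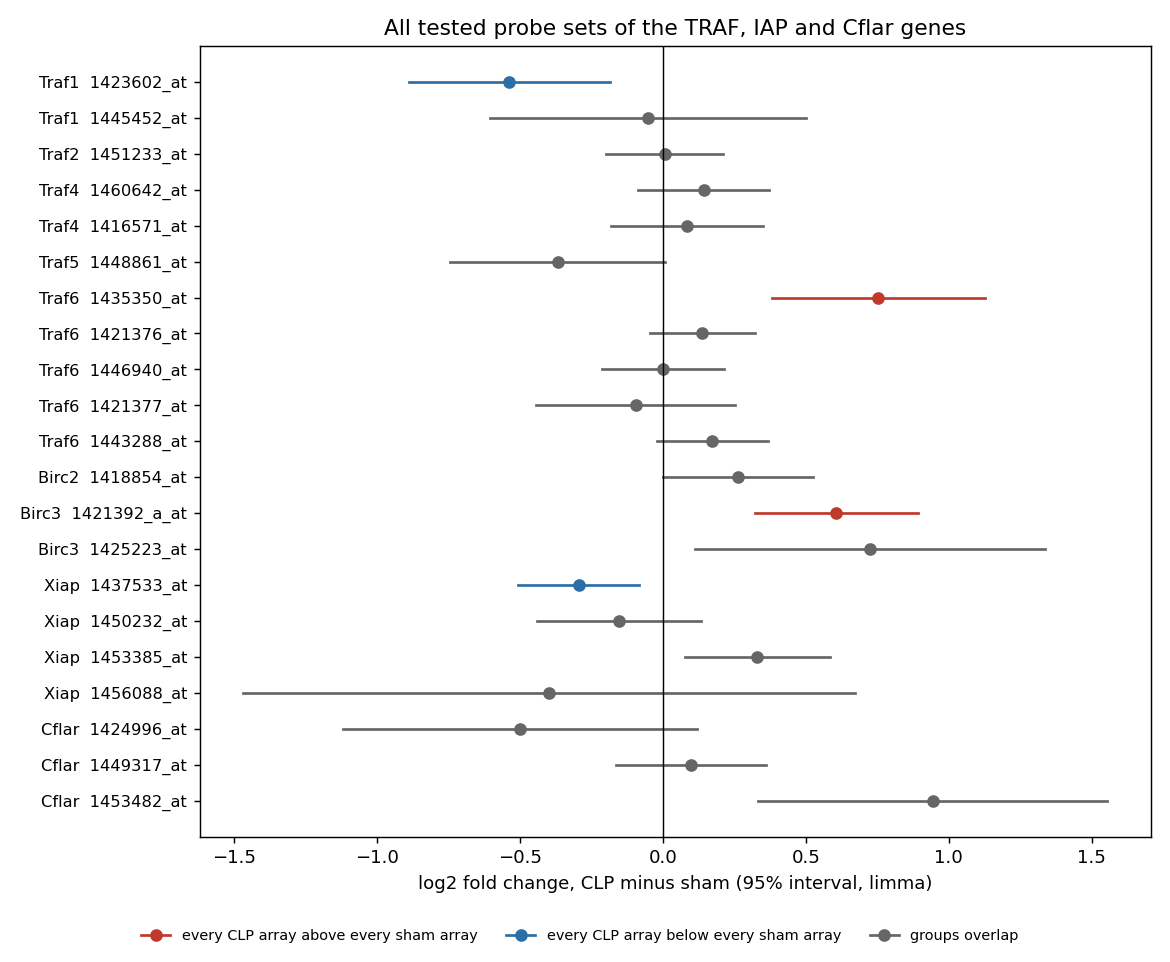
The horizontal axis is the log2 fold change, CLP minus sham, of each of the 21 tested probe sets, with its 95% interval from limma, and the colours mark the 4 probe sets at which the groups did not overlap. Probe sets of the same gene lie apart for Traf6 (-0.09 to 0.75), Xiap (-0.40 to 0.33) and Cflar (-0.50 to 0.94).

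Birc3 encodes cIAP2, the cellular IAP that NF-kB induces. At its brighter probe set (1421392_a_at) the log2 signal was 11.18, 11.47, 11.64, 11.41 and 11.54 in CLP mice 1 to 5, against 10.96, 10.47, 10.88, 10.76 and 11.12 in sham mice 1 to 5. All CLP mice were above all sham mice, with CLP mouse 1 nearest to the sham range. The means were 11.45 ± 0.17 in CLP and 10.84 ± 0.24 in sham mice (SD, n = 5 each), a 1.52-fold difference (log2 fold change 0.61 ± 0.13, SE, 95% interval 0.32 to 0.89, adjusted p = 0.0621). It was the 261st lowest p of the table. With the 18S class as a block the adjusted p was 0.0272, and the difference was 0.46 in high class arrays and 0.82 in low class arrays. Without CLP replicate 1 it was 0.67 with an adjusted p of 0.0284, the single pass among the fits that left out 1 array.

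The other Birc3 probe set (1425223_at) lay the same way with a wider spread. Its log2 signal was 8.01, 8.87, 8.17, 9.62 and 8.52 in CLP mice, against 7.54, 8.33, 7.66, 7.84 and 8.20 in sham mice, and the groups overlapped. The log2 fold change was 0.72 ± 0.28 (SE, adjusted p = 0.325; 0.0969 with the block), and with both probe sets averaged Birc3 gave 0.67 with an adjusted p of 0.0753. In CLP mice 2 and 4, the low class, this probe set was brighter than in the other 3.

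Birc2, the neighbour of Birc3 on chromosome 9, encodes cIAP1. Its single probe set gave 10.50, 10.82, 10.91, 10.64 and 10.77 in CLP mice, against 10.30, 10.18, 10.65, 10.53 and 10.66 in sham mice. The groups overlapped, and the log2 fold change was 0.26 ± 0.12 (SE, 95% interval 0.0004 to 0.52, adjusted p = 0.457). Annotation has used the old names of the 2 genes for each other. Here the probe accession of Birc2 and that of the brighter Birc3 probe set each matched a RefSeq transcript of its own gene.

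Traf6 joins the interleukin-1 and Toll-like receptors, through MyD88, to NF-kB, and also serves the T cell receptor. At its brightest probe set (1435350_at) the log2 signal was 8.92, 9.68, 9.60, 9.08 and 9.75 in CLP mice, against 8.44, 8.50, 8.84, 8.78 and 8.72 in sham mice. Every CLP mouse was above every sham mouse, and CLP mice 1 and 4 were close to the sham range. The log2 fold change was 0.75 ± 0.17 (SE, 95% interval 0.38 to 1.12), or 1.68-fold, with an adjusted p of 0.0743. With the 18S class as a block the adjusted p was 0.0443; the difference was 0.76 in the high class and 0.74 in the low class. Without CLP replicate 1 it was 0.87 with an adjusted p of 0.0179, the single pass among the fits that left out 1 array.

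The 4 other Traf6 probe sets did not follow. Their log2 fold changes were 0.14 ± 0.08 (1421376_at), 0.17 ± 0.09 (1443288_at), -0.0003 ± 0.097 (1446940_at) and -0.09 ± 0.16 (1421377_at), with SE, and their adjusted p ran from 0.537 to 1.00. The log2 signal of 1421376_at ran from 8.48 to 8.65 in CLP mice and from 8.32 to 8.60 in sham mice, and that of 1446940_at from 7.70 to 8.02 in CLP mice and from 7.66 to 8.02 in sham mice. For 1421377_at it was 6.72 to 7.57 in CLP mice and 6.87 to 7.43 in sham mice, and for 1443288_at 6.71 to 7.0 in CLP mice and 6.55 to 6.83 in sham mice. The groups overlapped at all 4. With the 5 probe sets averaged, Traf6 gave 0.19 with an adjusted p of 0.40. Where each probe set lies on the transcript is not given in the sources used here.

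Traf1 lacks the ligase domain of the other TRAFs, pairs with TRAF2 and serves 4-1BB signalling. It is a common sign of NF-kB activity in lymphocytes. At its brighter probe set (1423602_at) the log2 signal was 8.64, 8.41, 8.40, 8.55 and 8.26 in CLP mice, against 8.83, 8.71, 9.07, 8.75 and 9.59 in sham mice. Every CLP mouse was below every sham mouse. The difference was 1.45-fold (log2 fold change -0.54 ± 0.16, SE, 95% interval -0.89 to -0.18, adjusted p = 0.172). It was -0.73 in the high class and -0.25 in the low class, and the adjusted p was 0.0918 with the class as a block. Sham mice 3 and 5, both of the high class, held the 2 highest values. Without sham replicate 5 the difference was -0.39. The other Traf1 probe set (1445452_at) gave -0.05 ± 0.25 (SE, adjusted p = 0.981), and all high class arrays lay above all low class arrays there. With both probe sets averaged, Traf1 gave -0.30 with an adjusted p of 0.615.

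**Figure D2:**
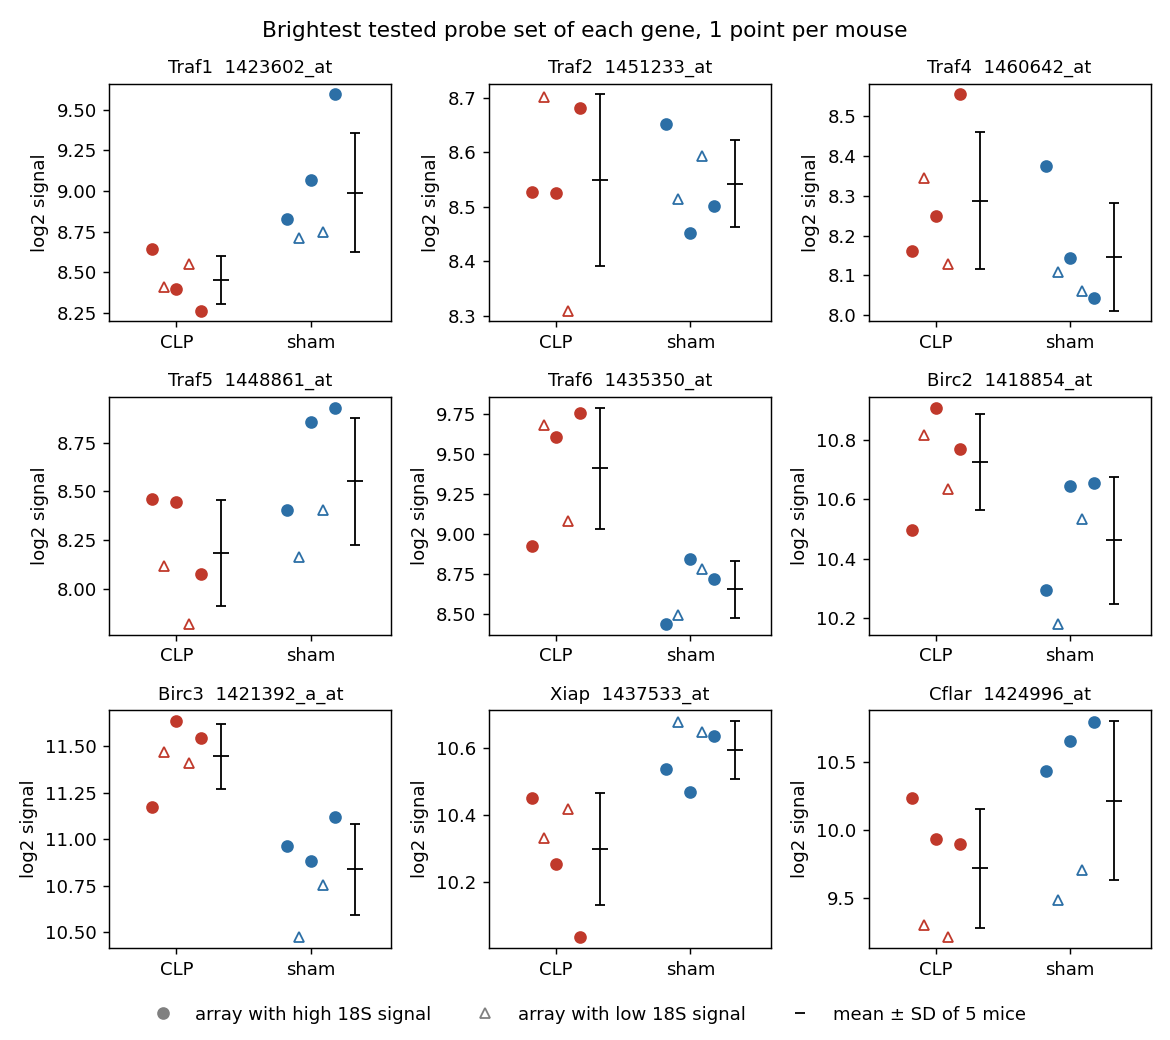
Each panel shows the log2 signal (vertical axis) of the brightest tested probe set of a gene, with 1 point per mouse, CLP on the left and sham on the right. Filled circles are arrays with high and open triangles arrays with low 18S signal, and bars are mean ± SD of 5 mice. Birc3 and Traf6 are higher in all CLP mice, Traf1 and Xiap lower, and the Cflar points split by 18S class within both groups.

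Traf2, the adaptor that brings the cellular IAPs to TNF receptors, differed by 0.006 ± 0.09 on the log2 scale (SE, 95% interval -0.20 to 0.21, adjusted p = 0.993). Its signal ran from 8.31 to 8.70 in CLP mice and from 8.45 to 8.65 in sham mice. The groups overlapped, with the spread wider among CLP mice. Traf4, the family member least tied to TNF receptors, gave 0.14 ± 0.10 and 0.09 ± 0.12 (SE) at its 2 probe sets, with adjusted p of 0.757 and 0.92. The first (1460642_at) ran from 8.13 to 8.55 in CLP mice and from 8.04 to 8.38 in sham mice, and the second (1416571_at) from 6.57 to 7.15 in CLP mice and from 6.55 to 6.97 in sham mice, so that both overlapped.

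Traf5, a close relative of TRAF2 that works below OX40 and CD27 in T cells, had a log2 signal of 8.46, 8.12, 8.45, 7.82 and 8.07 in CLP mice, against 8.41, 8.16, 8.86, 8.40 and 8.93 in sham mice. The groups overlapped. The log2 fold change was -0.37 ± 0.17 (SE, 95% interval -0.75 to 0.008, adjusted p = 0.474), with -0.40 in the high class, -0.31 in the low class and an adjusted p of 0.167 with the class as a block. The second Traf5 probe set (1447682_x_at) was at the floor on all 10 arrays, its highest scaled intensity being 27.9.

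Xiap was lower at its brightest probe set (1437533_at). The log2 signal was 10.45, 10.33, 10.25, 10.42 and 10.04 in CLP mice, against 10.54, 10.68, 10.47, 10.65 and 10.63 in sham mice. Every CLP mouse was below every sham mouse, with CLP mouse 1 and sham mouse 3 nearest to each other. The log2 fold change was -0.30 ± 0.10 (SE, 95% interval -0.51 to -0.08), or 1.23-fold lower, with an adjusted p of 0.216. It was -0.30 in the high class and -0.29 in the low class.

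Of the 3 other tested Xiap probe sets, 2 had a lower mean in CLP and 1 a higher mean, and none passed. Probe set 1453385_at, at 7.38, 7.33, 7.32, 6.99 and 7.54 in CLP mice against 6.81, 6.85, 6.98, 7.06 and 7.20 in sham mice, gave 0.33 ± 0.12 (SE, adjusted p = 0.259), and 1450232_at gave -0.15 ± 0.13 (adjusted p = 0.812). Probe set 1456088_at gave -0.40 ± 0.49 (adjusted p = 0.90; SE 0.15 and adjusted p = 0.207 with the block); CLP mice 2 and 4 and sham mouse 2 were at the floor and sham mouse 4 close to it, at 6.20, while the high class ran from 7.11 to 8.32. The 3 dim probe sets were at the floor on all arrays, their highest scaled intensities being 20.9, 42.6 and 52.8. With its 4 tested probe sets averaged, Xiap gave -0.13 with an adjusted p of 0.851.

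Cflar gave 3 answers at 3 probe sets. At the brightest (1424996_at) the log2 signal was 10.24, 9.30, 9.93, 9.21 and 9.90 in CLP mice, against 10.43, 9.48, 10.66, 9.71 and 10.80 in sham mice. The groups overlapped, but within each 18S class every CLP mouse was below every sham mouse. How many of all probe sets were separated in this way within both classes was not counted. The log2 fold change was -0.50 ± 0.28 (SE, adjusted p = 0.61). A block for the class left it at -0.50 and narrowed its SE to 0.11, with an adjusted p of 0.0381, from -0.61 in the high class and -0.34 in the low class. Mice of the high class were brighter than those of the low class by 0.77 among CLP mice and by 1.04 among sham mice.

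A second Cflar probe set (1453482_at) lay the opposite way. Its log2 signal was 7.41, 8.65, 8.97, 8.69 and 8.13 in CLP mice, against 6.90, 7.78, 7.39, 7.24 and 7.81 in sham mice, and only CLP mouse 1 lay within the sham range. The log2 fold change was 0.94 ± 0.28 (SE, 95% interval 0.33 to 1.55), or 1.92-fold, with an adjusted p of 0.165 and 0.0917 with the class as a block. Without CLP replicate 1 it was 1.18 with an adjusted p of 0.0227, the single pass in 24 alternatives, over which the difference ran from 0.79 to 1.18 and the adjusted p up to 0.447. The third (1449317_at) gave 0.10 ± 0.12 (SE, 95% interval -0.16 to 0.36, adjusted p = 0.901), and the average of the 3 was 0.18 with an adjusted p of 0.577. The gene has long and short protein forms, and which of them each probe set reads is not given in the sources used here. The 2 untested Cflar probe sets reached scaled intensities of 111 and 127 at most.

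**Figure D3:**
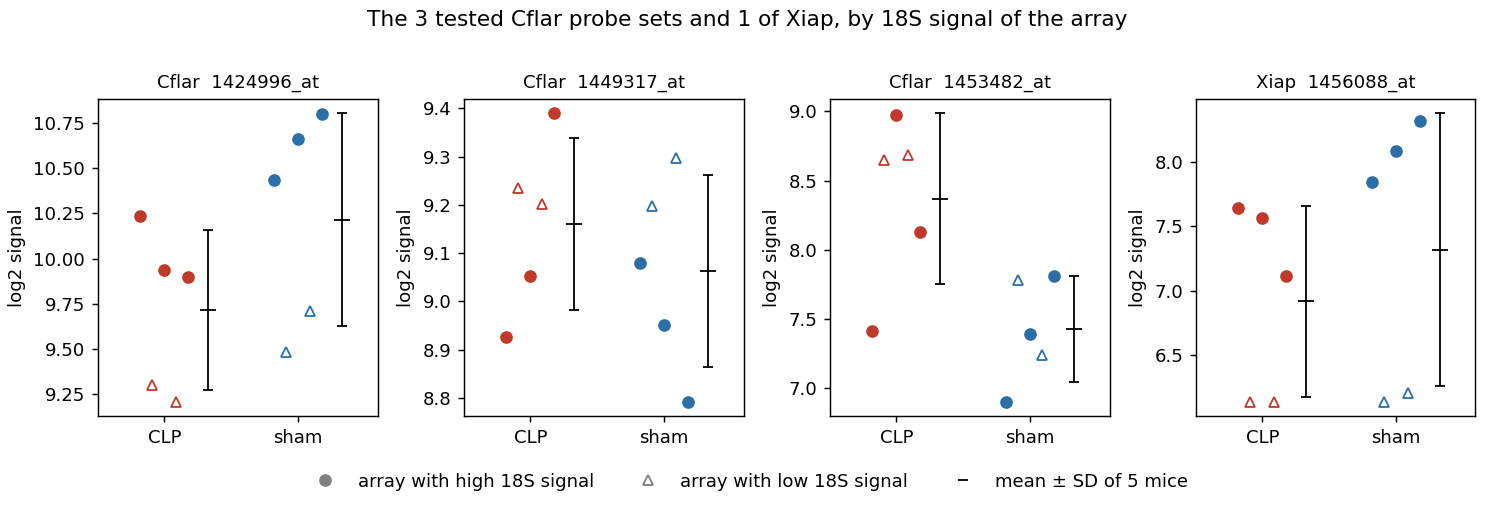
The log2 signal (vertical axis) of the 3 tested Cflar probe sets and of Xiap 1456088_at is shown per mouse, CLP left and sham right, with filled circles for high and open triangles for low 18S signal and bars for mean ± SD of 5 mice. At Cflar 1424996_at and Xiap 1456088_at every circle lies above every triangle, while at Cflar 1453482_at the CLP mice other than mouse 1 lie above all sham mice.

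A split by 18S class was also seen outside these genes. All high class arrays lay above all low class arrays at 3 of the 21 member probe sets, or 14.3%. These were Traf1 1445452_at, Xiap 1456088_at and Cflar 1424996_at, and no member probe set was separated the other way. Of the 27022 probe sets tested, 2099 had the high class above and 1066 the low class above, together 11.7%. The part of RNA quality in the member values was not tested.

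Of the members whose groups did not overlap, the start regions of Birc3, Traf6 and Traf1 are shown. The reason is that Birc3 and Traf1, both NF-kB targets, lay in opposite directions at their brighter probe sets, though neither passed the threshold. Each line is the 250 bases before the RefSeq start of the gene (GRCm38.p6), 5′ to 3′ on the strand of the gene, with CG pairs in capitals. The Birc3 sequence is chr9:7873171-7873420, minus strand, with 6 CG pairs and 43.6% G and C. That of Traf6 is chr2:101678170-101678419, plus strand, with 13 CG pairs and 56.4%. The Traf1 sequence is chr2:34961773-34962022, minus strand, with 4 CG pairs and 48.0%. Over 32841 such windows in the table the median was 6 CG pairs and 52.4% G and C.
Birc3: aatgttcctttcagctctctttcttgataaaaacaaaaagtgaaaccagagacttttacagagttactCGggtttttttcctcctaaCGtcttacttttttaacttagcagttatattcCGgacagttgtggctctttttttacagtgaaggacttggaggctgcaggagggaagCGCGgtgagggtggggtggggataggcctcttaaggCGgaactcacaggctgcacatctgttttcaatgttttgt
Traf6: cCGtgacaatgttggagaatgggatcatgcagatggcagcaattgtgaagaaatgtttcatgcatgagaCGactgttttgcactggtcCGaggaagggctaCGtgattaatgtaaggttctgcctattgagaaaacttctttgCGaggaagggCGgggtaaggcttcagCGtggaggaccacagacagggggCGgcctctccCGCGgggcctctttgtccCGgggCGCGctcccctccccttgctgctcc
Traf1: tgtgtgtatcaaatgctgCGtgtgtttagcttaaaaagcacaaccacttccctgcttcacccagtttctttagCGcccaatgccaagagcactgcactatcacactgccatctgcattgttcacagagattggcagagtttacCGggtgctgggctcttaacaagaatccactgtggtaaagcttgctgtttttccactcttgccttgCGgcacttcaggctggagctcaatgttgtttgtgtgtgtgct
All 10 genes matched the table, with 13 windows of 300 bases that reach 50 bases past the start. The NF-kB consensus was found, searching both strands, in 1 of these 13 and in 4.51% of all windows. The 1 match was GGGGATTTCC in Traf3, ending at the base before its start. The windows of Birc3, Traf6, Traf1 and Cflar did not hold it, which says only that these letters are not in these windows.

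The partners of the TRAFs were read by lists of 86 entries, of which 77 had a tested probe set, each gene by its brightest. Of the 77, 2 rose and none fell, beside 0.75% called of the 13073 genes tested (0.199% higher and 0.551% lower). A higher mean in CLP was seen in 50 of the 77, beside 6698 of all 13073 genes. The median log2 fold change was 0.05, against 0.0046 over all genes tested. With the 18S class as a block 4 of the 77 passed, and 2.72% of all genes did. Both that rose are TNF receptors. Tnfrsf9 (4-1BB) had a log2 signal of 10.13 ± 0.36 in CLP mice and 9.19 ± 0.14 in sham mice (SD, n = 5 each), and the groups did not overlap. The difference was 0.94 ± 0.16 (SE) with an adjusted p of 0.0311, or 1.92-fold. Only 1 of the 3 Tnfrsf9 probe sets was bright enough to be tested. Tnfrsf4 (OX40) had 10.58 ± 0.34 in CLP mice and 9.65 ± 0.27 in sham mice, and CLP mouse 1 lay within the sham range. The difference was 0.93 ± 0.18 (SE) with an adjusted p of 0.0441. Leaving out any 1 array kept Tnfrsf9 past the threshold only without CLP replicate 1 or CLP replicate 4, and Tnfrsf4 only without CLP replicate 1 or sham replicate 5; elsewhere their adjusted p ran up to 0.105 and 0.137. Both receptors signal through TRAF proteins. The receptor list had 14 measured genes with a median of 0.09, and Tnfrsf18 (GITR) gave 0.63 ± 0.21 (SE, adjusted p = 0.226; 0.0943 with the 18S class as a block).

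**Figure D4:**
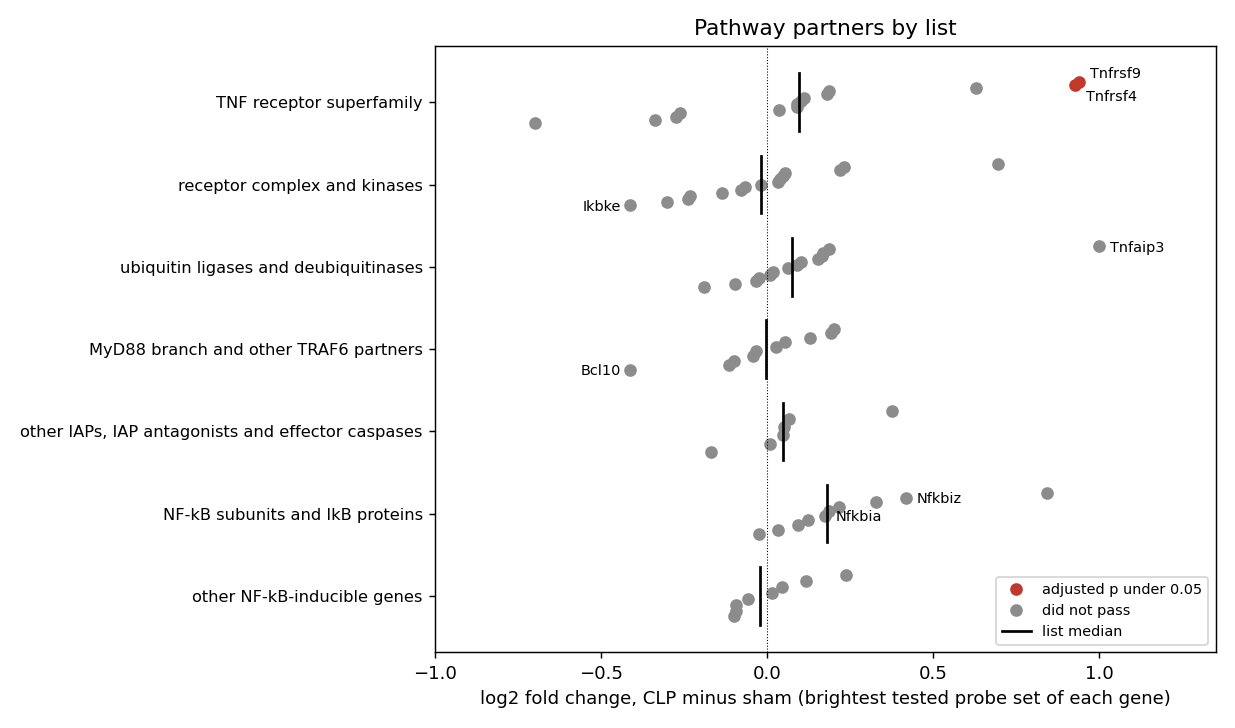
The horizontal axis is the log2 fold change, CLP minus sham, of each partner gene by its brightest tested probe set, and the rows are the lists, with a black line at each median. The 2 genes past the threshold, Tnfrsf9 and Tnfrsf4, are red, and the other named genes are those whose groups did not overlap without passing it.

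None of the other 6 lists held a gene that passed. Among 14 ubiquitin ligases and deubiquitinases (median 0.08), Tnfaip3, or A20, which removes the ubiquitin chains made around TRAF6 and RIPK1, had 10.95 ± 0.40 in CLP mice and 9.95 ± 0.31 in sham mice (SD, n = 5 each) and gave 1.00 ± 0.20 (SE, adjusted p = 0.0518). It passed in 8 of 24 alternatives, and its adjusted p ran from 0.0129 to 0.456 over all 24. Among the 8 were the 18S class as a block (0.0293) and the replicate number as a block (0.0405). These blocks are not independent, since each replicate number belongs to a single 18S class. Only 1 of the 2 Tnfaip3 probe sets was bright enough to be tested. Cyld, another deubiquitinase, gave -0.19 ± 0.08 (adjusted p = 0.409), and Rnf31, a ligase of linear chains, 0.17 ± 0.12 (adjusted p = 0.725). Among 15 members of the receptor complex and its kinases (median -0.02), Map3k5 (ASK1), a stress kinase that TRAF2 activates, gave 0.70 ± 0.18 (SE, adjusted p = 0.120; 0.0277 with the block), and the kinases Ikbke and Ikbkb gave -0.42 ± 0.14 and -0.23 ± 0.09 (adjusted p = 0.230 and 0.312). All CLP mice were below all sham mice for Ikbke. Of the 4 tested probe sets of Ikbkb, only 1 other shared the lower mean of the brightest.

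In the MyD88 branch and among other partners of TRAF6 (10 measured, median -0.005), Bcl10, an adaptor of antigen receptor signalling to NF-kB, was below the sham range in every CLP mouse, at 9.40 to 9.95 in CLP mice and 9.96 to 10.18 in sham mice and gave -0.41 ± 0.11 (SE, adjusted p = 0.127). Tifa and Sqstm1, which bind TRAF6, gave 0.20 ± 0.15 and 0.19 ± 0.15 (adjusted p = 0.772 and 0.775). Of the NF-kB subunits and their inhibitors, 9 of 10 measured had a higher mean (median 0.18), beside 6698 of all 13073 genes tested. None of the 10 passed. Bcl3 gave 0.84 ± 0.25 (SE, adjusted p = 0.160; 0.0652 with the block), Nfkbiz 0.42 ± 0.13 (adjusted p = 0.171; 0.0506 with the block) and Nfkbia, the inhibitor that NF-kB induces first, 0.17 ± 0.07 (adjusted p = 0.386), and the groups did not overlap for the last 2. Among 6 other IAPs, IAP antagonists and caspases (median 0.05), Xaf1, an interferon-induced antagonist of XIAP, gave 0.37 ± 0.14 (SE, adjusted p = 0.281). Diablo, or SMAC, which displaces caspases from IAPs, gave -0.17 ± 0.13 (adjusted p = 0.767), and Casp9 0.07 ± 0.10 (adjusted p = 0.931). Of the 3 tested probe sets of Casp9, only 1 other shared the higher mean of the brightest. Of 8 other NF-kB-inducible genes (median -0.02), Bcl2l1, Cd83 and Il2ra gave 0.24 ± 0.15, -0.10 ± 0.15 and -0.10 ± 0.16 (adjusted p = 0.659, 0.926 and 0.937), and the second tested probe set of Bcl2l1 had the opposite sign.

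The genes most like Birc3 and Traf1 over the 10 arrays were named as a description, by Pearson's r of the log2 signal among 13073 genes. For Birc3 1421392_a_at they were Rras2 (0.976), Usf2 (0.958), Acer2 (0.951), Arih2 (0.948) and Socs3 (0.945), with an r of the deviations from the group means between 0.789 for Socs3 and 0.963 for Arih2. For Traf1 1423602_at they were Zfp959 (0.981), Mettl26 (0.98), Tmem185a (0.965), Cd27 (0.965) and Tmem19 (0.963), with an r within groups from 0.918 for Tmem19 to 0.965 for Zfp959. Cd27, a costimulatory receptor that binds TRAF proteins, differed by -0.70 ± 0.25 (SE) with an adjusted p of 0.277. The arrays share the group and 18S class in these values.

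Markers checked the cells. The T cell markers Cd4, Cd3d and Cd3e had log2 signals of 10.48 to 12.07 over all arrays. None of the 5 measured T cell markers passed, although all 5 had a lower mean in CLP (summed scaled intensity 10601 to 12766 in CLP and 11914 to 17637 in sham arrays). Thy1 differed most, at -0.79 ± 0.27 (SE, adjusted p = 0.249), followed by Cd3g at -0.49 ± 0.27 (adjusted p = 0.60). Of 4 regulatory T cell markers none passed. Foxp3 gave 1.10 ± 0.22 and Ctla4 1.44 ± 0.29 (SE, adjusted p = 0.0530 and 0.0513). For Foxp3 every CLP array lay above every sham array (8.616 to 9.67 against 7.72 to 8.613), while the groups overlapped for Ctla4. Il2ra and Ikzf2 had a lower mean, and the sums were 3017 to 4764 in CLP and 2689 to 3636 in sham arrays. B cell markers summed to 1446 to 4018 in CLP and 1722 to 3182 in sham arrays (0 of 5 passed), neutrophil markers to 2131 to 15056 in CLP and 3898 to 11436 in sham arrays (0 of 7), and monocyte and macrophage markers to 3221 to 4151 in CLP and 2606 to 3931 in sham arrays (0 of 4 tested). Both tested NK cell markers had a lower mean in CLP, Klrd1 at -0.54 ± 0.17 and Nkg7 at -0.24 ± 0.08 (SE, adjusted p = 0.195 and 0.205). Nkg7 was lower in every CLP array than in every sham array. NK cell markers summed to 1805 to 2320 in CLP and 2352 to 3119 in sham arrays, without overlap. The Ncr1 probe set was at the floor on all arrays, which does not tell whether NK cells were present. Erythroid markers summed to 839 to 4051 in CLP and 431 to 1690 in sham arrays (0 of 3 passed), with Hba-a1 at the floor. Dendritic cell markers summed to 732 to 1039 in CLP and 695 to 836 in sham arrays, and the 2 CD8 markers to 468 to 580 in CLP and 394 to 545 in sham arrays. The part of these cells in the values of the TRAF and IAP genes and of their partners, Tnfrsf9 and Tnfrsf4 included, was not tested.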

How the data were processed

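Affymetrix arrays measured RNA of CD4+ splenocytes of 5 CLP and 5 sham mice, 1 array a mouse; per the labels' protocols, biotinylated cRNA was made with a 2-round amplification for small samples. The authors deposited 1 linear intensity for each probe set on each array, and how it was computed from the scans is not stated in the labels. The sham replicate number is the suffix of the title.

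Arrays were scaled to a common median, floored at the 25th percentile (70.4), logged (log2), filtered at the 40th percentile of mean log2, and compared with limma 3.58.1 in R 4.3.3, with Benjamini-Hochberg adjustment over 27022 probe sets and a threshold of 0.05. The fit was tested on simulated data. Intervals are limma's 95%. Symbols came from the platform annotation and matched RefSeq (GRCm38.p6) for all member probe sets by the annotation's own gene identifier, which does not check the probes. The probe accession was a RefSeq transcript of its gene for Birc2, Birc3 1421392_a_at, Traf4 1416571_at and 1460642_at, Traf5 1448861_at and Cflar 1449317_at. At the other member probe sets it was not, and their assignment rests on the annotation.

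The members, lists and 18S classes (split at 1000) were chosen with earlier results of these data known. Named partners are, per list, genes past the threshold and up to 3 with the lowest p, plus the 5 genes most like the member with the lowest p in each direction; other genes named were markers. One entry of a partner list is not reported here. Figures used matplotlib 3.10.9. Alternatives were other scalings, floors, filters and variance models, array weights, blocks by replicate number and by 18S class, each class alone, averaged probe sets, and leaving out each array.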

Additional observations from a re-analysis of the deposited data

Results flagged for a closer look

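In 2 of 42 groups of 5 values (21 tested probe sets, CLP and sham), 1 mouse stood apart from the 4 others by more of the group's range than Dixon's 95% limit of 0.71 allows; chance alone flags about 1 group in 20. At Traf6 1421376_at, CLP mouse 5 had a log2 signal of 8.48, with the next lowest CLP mouse at 8.61. At Traf6 1446940_at, CLP mouse 3 had 8.02, with the next highest CLP mouse at 7.75. Neither probe set passed with or without these mice.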

How the results depend on the processing

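The sign of Birc3, Birc2, Traf4 and Traf5 at their tested probe sets, and of Traf1 and Traf6 at the brightest, stayed the same in every alternative run. Birc3 1421392_a_at passed in 5 of 25 alternatives (adjusted p = 0.0272 to 0.447), among them quantile normalization (0.64, adjusted p = 0.0434), 75th percentile scaling (0.63, 0.0451) and array weights (0.66, 0.0302), and Traf6 1435350_at in 3 of 25 (0.0179 to 0.648), array weights among them (0.77, 0.0376). So 1 member was higher under each of those scalings, 2 with array weights, and 2 higher and 1 lower with the 18S block, which was chosen after seeing the data like the fits of each class alone; leaving out 1 array gave 0 to 3 higher members (3 without CLP replicate 1). Over all probe sets the calls were 154 higher and 355 lower with array weights, 175 and 543 with the 18S block, 0 and 3 with no filter, and 0 and 0 in each 18S class alone, where 3611 (high class) and 1959 (low class) had an unadjusted p under 0.05. Leaving out 1 array gave 0 to 123 higher and 4 to 383 lower: 123 and 383 without CLP replicate 1, 9 and 16 without CLP 2, 10 and 14 without CLP 3, 74 and 183 without CLP 4, 3 and 7 without CLP 5, 8 and 28 without sham 1, 6 and 19 without sham 2, 0 and 4 without sham 3 (2291 at an unadjusted p under 0.05), 6 and 11 without sham 4, and 29 and 33 without sham 5. The partner genes called numbered 5 with array weights, 4 with the 18S block, 0 with no filter and in each class alone, and 0 to 3 without 1 array. Tnfaip3 passed in 8 of 24 alternatives, with quantile normalization (0.0404), unscaled values (0.0464), 75th percentile scaling (0.0449), the 60th percentile filter (0.0467), array weights (0.0302), both blocks and without CLP replicate 1 (0.0129). Values that changed sign, none of them past the threshold, were Traf6 1446940_at (0.0039 quantile, 0.0094 unscaled, 0.0185 at the 75th percentile, 0.0454 with array weights, 0.1048 in the high class, -0.0586 to 0.0573 without 1 array), Traf1 1445452_at (0.073 with array weights, 0.1768 in the low class, -0.2221 to 0.1012 without 1 array), Traf2 (-0.0482 in the low class, -0.0321 to 0.066 without 1 array), Traf6 1421377_at (0.0463 with array weights), Xiap 1450232_at (0.0264), Cflar 1449317_at (-0.0285) and Il2ra (0.079) in the low class, Cflar with its probe sets averaged (0.1801), and Cd83 (0.0188 with array weights, 0.0181 in the high class, -0.188 to 0.0009 without 1 array). The cause of these differences was not tested.

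With the replicate number as a block the calls were 90 higher and 158 lower, with no member among them; partner calls numbered 3, against 2 without it, with Tnfaip3 added (adjusted p = 0.0405). Deviations from the group means of same-numbered mice correlated at 0.176, 0.582, 0.384, 0.181 and 0.0633, and 3 of 10 mice correlated best with their own number, so the numbers were not taken as pairs.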
